A study of Mus musculus with 3 samples.

Results

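The very broad peaks were the called ATAC-seq peaks that ran for 5 kb or more without a break on an autosome of mouse forelimb mesenchymal progenitors (MPs). They were selected on width alone, from the peak lists of embryonic day (E) 12.5 and E16.5, as rows whose end lay 5000 bp or more beyond the start. The E12.5 list gave 725 of its 186700 autosomal peaks (0.388%) and the E16.5 list 1324 of 208869 (0.634%), so that 2049 of the 395569 autosomal peaks at these stages were members. The whole series held 506515 called peaks. Because width is a measured value, the widths themselves are a description and carry no test. The E14.5 list was not used to choose members, and only 179 of its 100429 autosomal peaks (0.178%) reached 5 kb.

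The series comprised 3 libraries of single-nucleus ATAC-seq, 1 per stage (E12.5, then E14.5, then E16.5), all from C57BL/6J embryos of the genotype Hic1CreERT2/CreERT2;Rosa26LSLtdTomato/tdTomato. Both Hic1 alleles carried the tamoxifen-dependent recombinase CreERT2, which was therefore driven by the Hic1 locus, and both Rosa26 alleles carried the tdTomato reporter behind a stop cassette. Pregnant dams had received tamoxifen in sunflower oil by gavage at E10, so the sorted tdTomato+ cells were descendants of cells with Hic1 activity near that time. The sort had excluded cells bearing CD45, CD117, CD31, CD11b, F4/80 or Ter119, and male and female embryos were used together. Whole forelimbs were taken at the first pair of stages. The E16.5 tissue was the elbow joint with the distal stylopod above it and the proximal zeugopod below. Digestion was with Dispase at E12.5 and with Collagenase A, Pronase and DNase at the later stages. Stage cannot be told apart from library or sequencing depth. Between E12.5 and the later stages it cannot be told apart from digestion either. Between E16.5 and the earlier stages it cannot be told apart from limb piece or from the software version in the file headers. With 1 library per stage no test between stages was possible. Intervals given with values are at 95% and cover counting error only.

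The deposited matrices held 87048167 cut sites from 8294 nuclei for E12.5, 204289151 from 20023 for E14.5 and 413425059 from 14048 for E16.5, with medians of 6004, 8575 and 26694 per nucleus. From 151 to 401 barcodes were shared by a pair of libraries. Promoter peaks of the limb mesenchyme genes Prrx1, Twist1, Pdgfra and Hic1 held a count in 15.5% to 31.0%, 26.0% to 46.3% and 41.0% to 63.5% of nuclei in the order of stages. Of 14 markers of blood, endothelial, epithelial, myogenic and Schwann cells, 11, 5 and 9 had a promoter peak in the same order, and the blood genes Ptprc and Spi1 had none in any library. Promoter peaks of the endothelial Tek and the epithelial Epcam held a count in 3.85% to 6.02%, 9.49% to 11.3% and 13.4% to 18.6% of nuclei in the order of stages, and their part in the results was not tested.

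ATAC-seq marks DNA that a transposase can enter because nucleosomes are absent or loose there. Most accessible stretches are short promoters and enhancers, and very long ones form where many such elements lie side by side or where a whole gene is unwrapped. Genes of developmental transcription factors often sit in long stretches rich in CG dinucleotides that lack DNA methylation and can carry Polycomb group proteins. The Hox genes, which set position along the body and along the limb, lie in 4 dense clusters of this kind, and the posterior genes of HoxA and HoxD pattern the segments of the limb.

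To show the sequence that such peaks hold, the 150 bp stretch with the most CG dinucleotides was read from GRCm38 for the widest member in the HoxA, HoxB and HoxC clusters and for the widest E16.5 member outside the Hox clusters, with annotated untranslated bases passed over. All are on the plus strand, 5′ to 3′, and capitals mark CG. The HoxA stretch, chr6:52245040-52245189, lies in coding sequence of Hoxa11 and holds 27 CG dinucleotides. The HoxB stretch, chr11:96286906-96287055, lies in coding sequence of Hoxb7 and holds 19. The HoxC stretch, chr15:103010732-103010881, lies in coding sequence of Hoxc6 and holds 17. The stretch from the widest E16.5 member, chr19:5845853-5846002, lies in an intron of the non-coding gene Frmd8os and holds 19. A last stretch was added after its values were seen, from a member inside the collagen gene Col3a1, chr1:45331955-45332104, which takes in a coding exon and holds 9.
HoxA: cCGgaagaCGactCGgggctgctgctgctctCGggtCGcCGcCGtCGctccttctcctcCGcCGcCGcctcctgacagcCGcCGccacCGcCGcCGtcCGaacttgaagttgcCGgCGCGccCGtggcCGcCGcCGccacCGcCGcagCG
HoxB: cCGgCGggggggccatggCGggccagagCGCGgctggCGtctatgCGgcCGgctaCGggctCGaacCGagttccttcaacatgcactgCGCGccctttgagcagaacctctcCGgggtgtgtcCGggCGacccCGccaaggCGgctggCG
HoxC: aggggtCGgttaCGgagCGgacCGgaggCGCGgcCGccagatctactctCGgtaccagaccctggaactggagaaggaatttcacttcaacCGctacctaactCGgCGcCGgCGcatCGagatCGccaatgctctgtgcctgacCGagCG
Frmd8os: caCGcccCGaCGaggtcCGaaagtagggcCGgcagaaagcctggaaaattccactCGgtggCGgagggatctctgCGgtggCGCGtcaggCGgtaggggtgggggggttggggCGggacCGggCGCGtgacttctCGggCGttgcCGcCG
Col3a1: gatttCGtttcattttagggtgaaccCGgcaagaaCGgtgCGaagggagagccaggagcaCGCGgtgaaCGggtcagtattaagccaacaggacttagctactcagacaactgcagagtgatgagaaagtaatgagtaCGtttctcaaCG

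Peaks of 5 kb or more reached 30157 bp at E12.5 and, with 30147 bp, almost the same at E16.5, but only to 12896 bp at E14.5. Their median widths were 5981 bp (E12.5) and 6142 bp (E16.5), and 43 and 97 of them reached 10 kb. At E14.5 the median was 5760 bp and 3 peaks reached 10 kb. Members covered 4.83 Mb at E12.5 and 9.10 Mb at E16.5, or 3.14% and 4.81% of the length called on autosomes. They held 4.39% and 6.66% of the autosomal cut sites. In all 3 libraries the peaks of 5 kb or more were thus not only wider than other peaks but also denser, with 10.5, 17.4 and 8.94 cut sites per kb and per 1000000 cut sites in regions called at every stage (CPM per kb), against 7.53, 12.8 and 6.46 over all autosomal peaks in the order E12.5, E14.5 and E16.5.

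**Figure D1:**
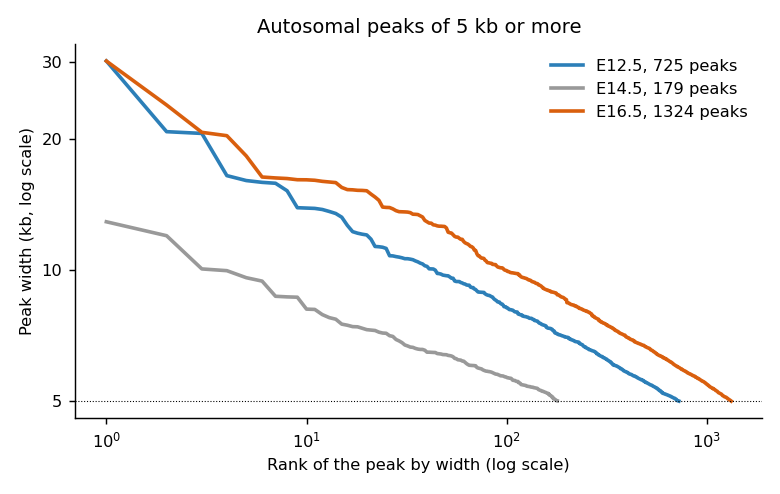
Width in kb (log scale) of each autosomal peak of 5 kb or more against its rank by width (log scale), 1 line per library, with the 5 kb threshold dotted. The E12.5 and E16.5 lines both start near 30 kb and the E14.5 line at 12896 bp.

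The threshold cut a continuous run of widths. Just inside it at E12.5 were a peak of 5000 bp outside genes and one of 5000 bp at Evx2, a homeobox gene beside the HoxD cluster. Just outside were peaks of 4998 bp at Gdf6, a BMP family ligand of joints, and 4996 bp at Zfp651. At E16.5 the narrowest members measured 5001 bp, 1 outside genes and 1 in Gm20388, and the widest peaks left out, short of 5 kb by 1 bp, lay in the body of the collagen gene Col1a2 and at Fam117a.

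The member lists of E12.5 and E16.5 overlapped largely but unequally. Of the E12.5 members, 551 of 725 (76.0%) overlapped an E16.5 member by 1 bp or more, and of the E16.5 members 553 of 1324 (41.8%) overlapped an E12.5 member. All 725 and all 1324 overlapped some peak of the other stage, so a member of a single list was called at the other stage too, as narrower or broken peaks. A wide peak has more room to meet another, and the same shares over all autosomal peaks were not taken. These overlaps are therefore a description. All 179 of the broad E14.5 peaks overlapped an E16.5 member and 172 an E12.5 member, whereas only 23.4% of E12.5 members and 13.4% of E16.5 members overlapped a broad E14.5 peak.

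Peaks of the 3 libraries that overlapped were merged, and each merged stretch with at least 1 member was taken as a common interval. There were 1494 of them, of which 549 held a member at both stages, 771 at E16.5 only and 174 at E12.5 only. Their median lengths were 7151, 5879 and 5642 bp, and the longest measured 30247 bp. In the E16.5-only intervals E12.5 had a median of 2 peaks, which covered a median of 70.3% of the interval, with a median width of 3241 bp for the widest. In the E12.5-only intervals E16.5 had a median of 2 peaks that covered 79.8%, the widest at a median of 3868 bp.

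The genes under these intervals were in the first place promoters. A transcription start site of an autosomal protein-coding gene lay in 968 of the 1494 intervals (64.8%), a further 343 (23.0%) lay over a gene body away from a start, and 183 (12.2%) lay outside protein-coding genes. The share with a start was 80.7% for intervals that were broad at both stages, 58.6% for E16.5 only and 42.0% for E12.5 only. A longer interval has more room for a start, and the share over all regions was not taken. In all, 1034 genes had a start in an interval. Most intervals with a start held 1 gene (888), 71 held 2 and 9 held 3 or more. The interval with the most genes, 5, was the histone cluster of Hist1h2ad, Hist1h2ae, Hist1h2bf, Hist1h2bg and Hist1h3d on chr13:23570131-23577639, whose near-identical copies can share reads. Several intervals tied at 3, the intervals of Hoxa9 to Hoxa11 and Hoxd10 to Hoxd12 among them, and the first of these in list order were a 9229 bp interval with Hes7, an oscillating repressor of somite formation, Aloxe3 and 9130213A22Rik, and an 8206 bp interval with Cyb5d1, Naa38 and Tmem88.

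Among all 20696 autosomal protein-coding genes, 551 (2.66%) had a start in an E12.5 member and 957 (4.62%) in an E16.5 member. Lists of limb transcription factors had larger shares. Of 49 T-box, basic helix-loop-helix and zinc finger factors of the limb, 26 had a start in an E12.5 member and 30 in an E16.5 member. The list was led by Tbx5, which starts the forelimb bud, with peaks of 20759 bp (E12.5) and 20322 bp (E16.5). Next came the odd-skipped genes of connective tissue, Osr1 at 15806 and 16205 bp and Osr2 at 10778 and 15191 bp, and the Ebf factor gene Ebf3 at 15190 and 16097 bp. Hic1 itself, the gene that drove the recombinase, lay in an interval whose widest peaks measured 10048, 6208 and 10134 bp in the order of stages.

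Homeobox factors outside the Hox clusters gave 19 of 48 at E12.5 and 26 of 48 at E16.5. Irx5, an Iroquois gene of dermis and limb, had its start in peaks of 6405 and 16336 bp and Zfhx4 of 7478 and 16257 bp. Lmx1b, which sets dorsal identity, lay in peaks of 8781 and 11235 bp. Prrx1, the marker of limb mesenchyme, stayed at 8877 and 8899 bp. The forkhead list gave 5 of 22 and 6 of 22, with Foxp2 at 7090 and 7135 bp and Foxc1 at 10357 bp at E16.5 alone.

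Signalling lists also had shares above those of all genes. From the Id and BMP/TGF-beta list, 13 of 29 had a start in an E12.5 member and 14 of 29 in an E16.5 member, with Id3, an inhibitor of helix-loop-helix factors that BMP signals turn on, at 12075 and 12205 bp. Bmp7, a BMP ligand, stood at 10055 and 10218 bp and Id2 at 9815 and 9869 bp. The Wnt list gave 10 of 34 and 12 of 34, led by the Frizzled receptor gene Fzd2 at 9223 and 9454 bp and the ligand gene Wnt11 at 8236 and 8059 bp. The list of FGF, hedgehog and Notch pathways gave 11 of 36 at both stages. Its widest member at E12.5 was at the hedgehog effector Gli2, with 10660 bp and 8112 bp at E16.5. The widest at E16.5 was at the Notch target Hes1, with 10111 bp and 9806 bp at E12.5. Gli3 was broad at E12.5 alone, at 8951 bp.

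Immediate early and stress genes, whose transcription responds within minutes to handling and to growth factors, had a start in an E12.5 member in 21 of 55 cases and in an E16.5 member in 28 of 55. Ccn1 lay in peaks of 12652 and 13938 bp, Gadd45b in peaks of 5926 and 13398 bp, and Klf6 and Klf4 reached 15228 and 13912 bp at E16.5 without a member over their start at E12.5. Cells of E12.5 and of later stages had been freed with different enzymes, and digestion cannot be told apart from stage.

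Chondrogenic and osteogenic genes gave 4 of 20 at E12.5 and 6 of 20 at E16.5. Sox9, the master factor of cartilage, lay in peaks of 9693 and 5206 bp and Runx3 of 10728 and 6848 bp, while the cartilage collagen gene Col2a1 was broad at E16.5 only, at 9311 bp. Tenogenic genes gave 4 of 12 and 3 of 12. Scx, the tendon factor, had a start in a 10365 bp peak at E12.5 and in a peak of under 5 kb at E16.5. Fibrogenic genes gave 2 of 16 and 4 of 16, and the mesenchymal receptor gene Pdgfra kept nearly the same width in all 3 libraries, 9714, 9597 and 9839 bp.

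The list that differed most between the stages was that of highly transcribed matrix and cytoskeleton genes, with 2 of 18 at E12.5 and 10 of 18 at E16.5 (the non-coding Malat1 and Neat1 were not counted). Col1a1, the chief collagen of bone, tendon and dermis, had its start in a peak of 6955 bp at first and of 23899 bp at E16.5. Actb, Vim and Col3a1 had a member over the start at E16.5 alone, of 16057, 13422 and 11893 bp. Lists of markers of other cells held few genes with a start in a member. No myogenic or endothelial gene (0 of 10 each at both stages) had a start in a member. The epithelial list gave 0 and 2 of 10 (Krt8 and Esrp1), the blood list 0 and 1 of 10 (Runx1), the Schwann cell list 0 and 1 of 7 (Foxd3), and 86 ribosomal protein genes gave 1 and 4. The epithelial, blood and Schwann shares at E16.5, 20%, 10% and 14.3%, rest on these 1 or 2 genes each and lay above the 4.62% of all genes, and their part in the results was not tested. Runx1 and Foxd3 also belong to the chondrogenic and the forkhead lists.

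**Figure D2:**
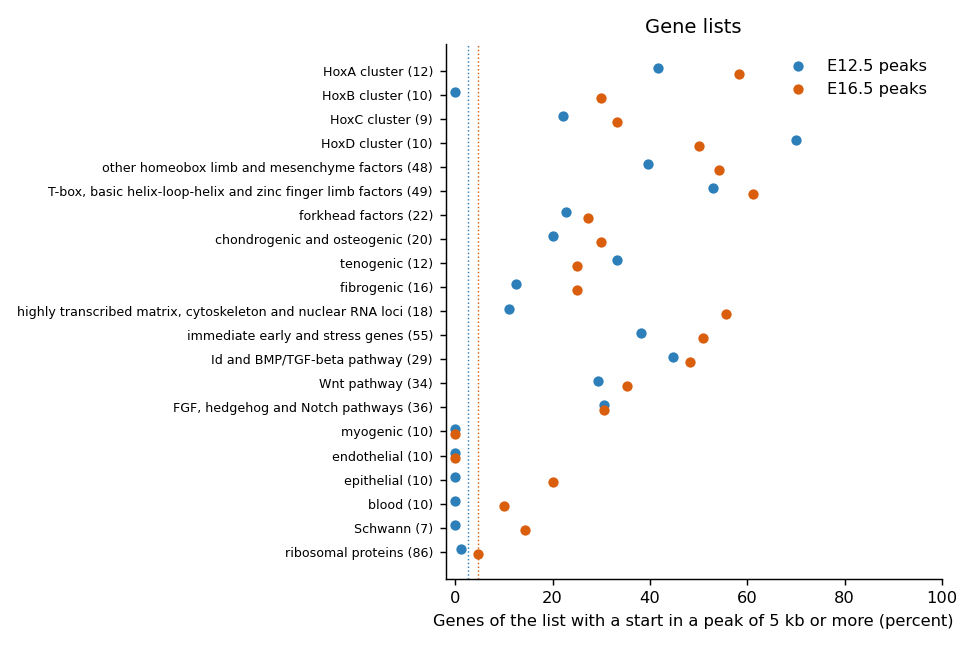
Percent of the genes of each list (number of genes in brackets) with a transcription start in a peak of 5 kb or more, for E12.5 and E16.5. Dotted lines mark the share among all autosomal protein-coding genes, 2.66% and 4.62%. Evx1 and Evx2 are counted with HoxA and HoxD. The factor and signalling lists lie to the right of both lines, except HoxB at E12.5, which is at 0, and the myogenic and endothelial lists lie at 0.

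Among the Hox clusters, HoxA and HoxD each held more members at both stages than HoxB or HoxC. HoxA, chr6:52155590-52260880, held the widest member of E12.5, a peak of 30157 bp from 52219870 to 52250026 over the starts of Hoxa9, Hoxa10 and Hoxa11, which pattern the upper and middle limb. At E14.5 the same stretch was called as 7 peaks of 1607 to 7037 bp. At E16.5 it was called as 3 peaks of 3420, 7446 and 18262 bp. Transcription starts of Hoxa9, Hoxa10 and Hoxa11 were in called peaks at every stage, and it was the DNA between and beside them that dropped out of the calls. At Hoxa13, the gene of the hand plate, peaks measured 5339, 2937 and 5992 bp at the widest.

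HoxD, chr2:74668310-74765142, held 6 members at E12.5 and 5 at E16.5. The widest at E12.5 was a peak of 13866 bp over Hoxd11 and Hoxd12, followed by a peak of 8447 bp over Hoxd10. At E14.5 the interval from Hoxd12 to Hoxd10 was called as 6 peaks of 394 to 5709 bp, the widest over Hoxd11. At E16.5 it was called as peaks of 7769, 6153 and 9914 bp, each over the start of 1 of the 3 genes. Peaks at Hoxd9 and Hoxd8 were broad at E12.5 only, at 7542 and 6562 bp, against 4720 and 3285 bp at E16.5.

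HoxB, chr11:96194316-96368256, had no member at E12.5, where its widest peak measured 4465 bp, and 2 at E16.5, of 5909 bp over Hoxb7 and Hoxb8 and 5735 bp over Hoxb5. HoxC, chr15:102921103-103036852, had 1 member at E12.5, of 6671 bp over Hoxc5 and Hoxc6, and 3 at E16.5, of 6136, 5574 and 6983 bp. Called peaks covered 73.4%, 49.2% and 72.3% of HoxA, 66.6%, 37.1% and 64.6% of HoxD, 42.0%, 17.4% and 54.8% of HoxC, in the order of stages, and 26.9%, 11.97% and 40.8% of HoxB. In every library HoxA was covered most and HoxB least.

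**Figure D3:**
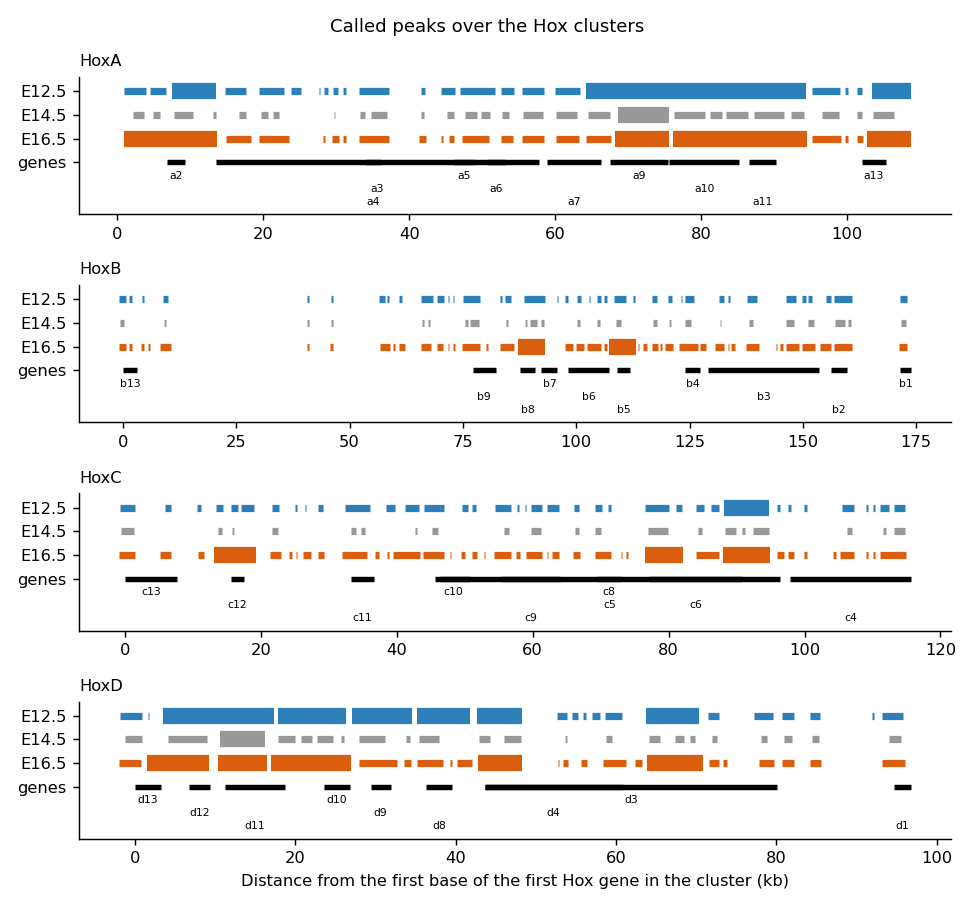
Called peaks along the 4 Hox clusters, with distance in kb from the first base of the first Hox gene, 1 row per library and a row of Hox genes in black. Thick bars are peaks of 5 kb or more. The 30157 bp E12.5 peak over Hoxa9, Hoxa10 and Hoxa11 stands above 7 E14.5 peaks and 3 E16.5 peaks.

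Over the longest intervals of HoxA and HoxD the level differed less between libraries than the widest peak did. The HoxA interval from Hoxa9 to Hoxa11 had 8.05, 9.08 and 7.08 CPM per kb in the order of stages, and that from Hoxd12 to Hoxd10 had 6.36, 6.91 and 5.79. E14.5 was thus the highest library in both, although it had the most peaks and its widest peak was the narrowest of the 3 libraries. Over Hoxb5 and Hoxc12 the level moved more, with log2 ratios of E16.5 to E14.5 of 1.26 and 1.27. There E14.5 called 21.3% and 16.7% of the interval and E16.5 called 100%. Per kb of called width both directions turned, from 6.88 to 3.51 CPM at Hoxb5 and from 7.33 to 2.95 at Hoxc12. Over all autosomal peaks this measure also fell, from 12.8 at E14.5 to 6.46 at E16.5. Summed over the intervals of a cluster, the log2 ratio of E16.5 to E12.5 was -0.12 (-0.15 to -0.09) in HoxA and -0.18 (-0.21 to -0.16) in HoxD. Both signs turned when nuclei with a count were summed in place of cut sites, to 0.15 and 0.02, and HoxA also when the deepest 5% of nuclei were left out, to 0.01. HoxC stood at 0.48 (0.42 to 0.54) and kept its sign under the 5 alternatives run. HoxB stood at 0.45 (0.36 to 0.53) and turned to -0.17 only when levels were taken per kb of called width.

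At E14.5 the intervals were in most cases broken up. Of the 1494 intervals, 402 held 1 E14.5 peak, 640 held 2, 314 held 3 and 127 held 4 or more, up to 8, while 11 held none. Hence 72.4% were split into 2 or more, with 77.0% for E12.5-only, 73.2% for E16.5-only and 69.8% for intervals broad at both stages. Among 11140 intervals of the next width class, whose widest E12.5 or E16.5 peak measured 2500 bp or more but under 5 kb, 30.1% were split. A longer interval has more room for several peaks, so these shares are set side by side as a description. The choice of unbroken calls at E12.5 or E16.5 also favours splits in a library outside the choice. Intervals broad at E16.5 only held a median of 2 E12.5 peaks, and those broad at E12.5 only a median of 2 E16.5 peaks.

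The 3174 E14.5 peaks in the intervals had a median width of 1383 bp, 83 were under 100 bp, and the 1691 gaps between them had a median of 990 bp, with 50.9% at 1000 bp or less and the longest at 18866 bp. No list had peaks closer than 501 bp. When E14.5 peaks up to 1000 bp apart were joined, 45.5% of the intervals stayed split, against 10.7% of the next width class. E14.5 peaks covered a median of 59.5% of an interval, 71.1% where it was broad at both stages, 51.8% at E16.5 only and 54.3% at E12.5 only. A peak that was itself 5 kb or more at E14.5 was found in 170 of the 549 intervals broad at both stages (31.0%), in 7 of the 771 broad at E16.5 only (0.908%) and in 0 of the 174 broad at E12.5 only.

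**Figure D4:**
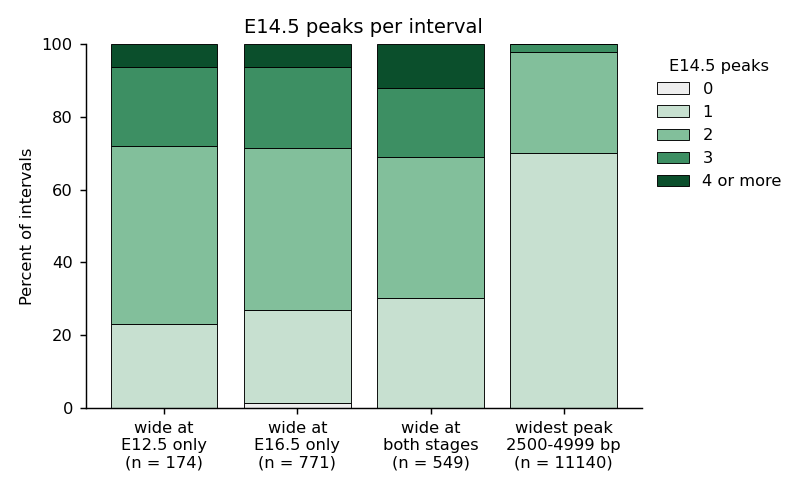
Percent of intervals with 0, 1, 2, 3 or 4 or more E14.5 peaks, for intervals broad at E12.5 only, at E16.5 only, at both stages and for the next width class (2500 bp or more but under 5 kb). Intervals with 2 or more E14.5 peaks make up 77.0%, 73.2%, 69.8% and 30.1% of the bars.

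The intervals that broke up most were Col1a1 with 8 E14.5 peaks, the HoxA interval of Hoxa9 to Hoxa11 with 7, and, among several tied at 6, the body of 2010111I01Rik, where a member of 15219 bp at E16.5 faced E14.5 peaks of at most 2114 bp. The E12.5 library also had 8 peaks over Col1a1. The widest E14.5 peak, 12896 bp, lay at Tbx5, and after it came 11980 bp at Tnrc18, 10052 bp at Bahcc1, a gene for a chromatin reader, 9960 bp at Smad7, an inhibitor of TGF-beta signals, and 9597 bp at Pdgfra. The Pdgfra interval held no other E14.5 peak, whereas those of the other loci held 2 to 4. Tbx5 had levels of 5.70, 6.70 and 5.16 CPM per kb, Bahcc1 of 8.75, 9.06 and 8.12 and Pdgfra of 14.1, 15.9 and 12.8 in the order of stages. Tnrc18 had 12.7, 15.4 and 13.7 and Smad7 had 9.79, 8.96 and 8.05. E14.5 was the library with the highest level in all but Smad7, where E12.5 was. Of the Smad7 interval E14.5 called only 69.2%, against 93.9% (E12.5) and 95.6% (E16.5). Divided by the length each library called, the Smad7 levels were 10.42, 12.95 and 8.42 CPM per kb in the order of stages. By that measure E14.5 was the highest at Smad7 too, but it was so over all autosomal peaks as well (7.53, 12.8 and 6.46 CPM per called kb). The part of what E14.5 left uncalled at Smad7 was not tested.

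Sfi1 and the body of Mroh2a, also among the 5 widest E12.5 members outside the Hox clusters, behaved otherwise. Sfi1, a centrosome gene, had peaks of 16034, 1419 and 15862 bp at the widest and levels of 8.71, 3.30 and 5.44 CPM per kb, and Mroh2a had peaks of 15882, 3304 and 14446 bp and levels of 3.13, 1.18 and 3.41. E14.5 called 26.9% of the Sfi1 interval and 24.5% of that in Mroh2a, against 91.4% or more at the other stages. Per kb of called width E14.5 was the highest library in both. It had 12.3 against 8.71 and 5.50 CPM for Sfi1 and 4.82 against 3.22 and 3.74 for Mroh2a. Over all autosomal peaks E14.5 was the highest by this measure too (7.53, 12.8 and 6.46 in the order of stages). The part of the stretches that E14.5 did not call was not tested. Repeats masked in the assembly took 45.3% of the Sfi1 interval and 8.85% of that in Mroh2a, against a median of 12.3% over E12.5 members, and the part of repeats was not tested. None of the 725 or 1324 members reached 50% of masked bases.

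Over whole intervals the level changed little between the stages. The median log2 ratio of E16.5 to E12.5 was 0.08 over 1483 intervals with a peak of every library, and that of E14.5 to E12.5 was 0.13. Over all 82930 regions with a peak of every library these medians were -0.01 and -0.19, so relative to all regions the intervals lay higher at E14.5. The next width class had medians of 0.06 and 0.11, close to those of the broad intervals. Its mean levels were 8.4, 9.1 and 8.7 CPM per kb of interval in the order of stages. The broad intervals had 8.2, 8.6 and 8.4, so by this measure they were not the denser class. Only 108 intervals (7.28%) were 2-fold or more higher at E16.5 than at E12.5 and 45 (3.03%) were 2-fold or more lower, against 18.4% and 16.5% of all regions and 14.4% and 7.81% of the next width class. From E12.5 to E14.5, 23 (1.55%) were 2-fold higher and 80 (5.39%) 2-fold lower, against 10.5% and 20.5% of all regions and 5.51% and 11.85% of the next width class. The share past 2-fold was thus lower the wider the class, but among the broad intervals it differed by kind. From E12.5 to E16.5, 1.9% of those with a start were 2-fold or more higher and 0% lower. In gene bodies these shares were 18.2% and 7.76%, and outside protein-coding genes 15.85% and 10.4%. Narrower regions also hold fewer cut sites, and the part of counting error was not tested.

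Cut sites are listed only inside a library's own called peaks, so a stretch that a library did not call adds nothing to its level. This bears on every interval that the libraries called to different extents. E12.5-only intervals had a median log2 ratio of E16.5 to E12.5 of -0.43, E16.5-only intervals 0.29 and those broad at both stages -0.02, directions that the choice by width favours. When levels were divided by each library's called width, the ratio of the sums over E16.5-only intervals turned from 0.29 to -0.28, and that over E12.5-only intervals moved from -0.44 to -0.07. In E16.5-only intervals the narrower E12.5 calls thus held more cut sites per called kb than the broad E16.5 peaks did, as was so over all autosomal peaks (7.53 CPM per called kb at E12.5 and 6.46 at E16.5).

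**Figure D5:**
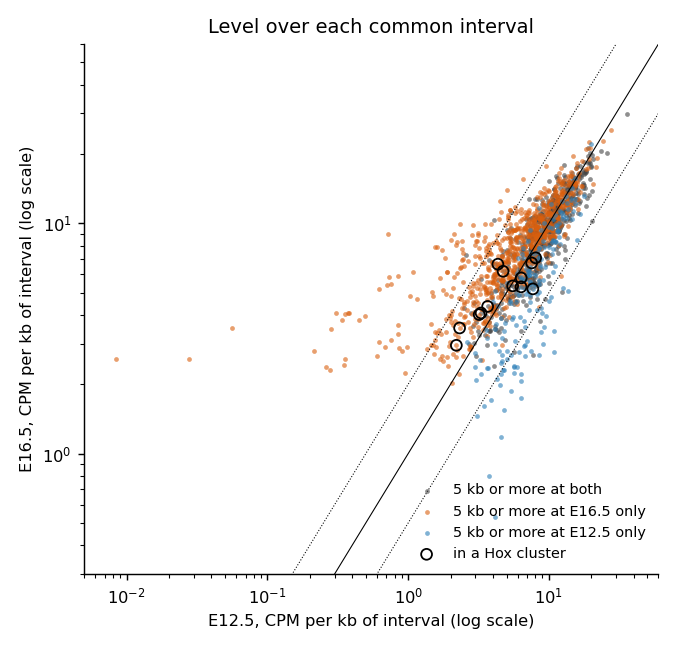
Level over each common interval at E12.5 against E16.5, in CPM per kb of interval (log scales), coloured by the stage at which a peak of 5 kb or more was called, with intervals in Hox clusters ringed. The solid line marks equal levels and the dotted lines a 2-fold difference; 108 of 1483 intervals with a peak of every library lie at or above the upper line and 45 at or below the lower.

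Promoter intervals and gene bodies are given apart, beside a median log2 ratio of E14.5 to E12.5 of -0.19 and a share of 20.5% that was 2-fold or more lower over all regions. Intervals with a start had a median log2 ratio of E14.5 to E12.5 of 0.19, and 0.414% of them were 2-fold or more lower at E14.5. Intervals in gene bodies had a median of -0.21 with 14.6% 2-fold lower, and those outside protein-coding genes -0.14 with 14.8%, so that both shares lay below that of all regions. Among gene bodies that were broad at E16.5 only, the median log2 ratio of E16.5 to E12.5 was 0.62 and 60 of 200 (30%) were 2-fold or more higher, against 17 of 449 (3.79%) of such intervals with a start and 18.4% of all regions. Among gene bodies broad at E12.5 only it was -0.77 and 23 (35.9%) were 2-fold or more lower, against 0 of 73 with a start and 16.5% of all regions. The choice by width favours these directions.

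The widest E16.5 member outside the Hox clusters, 30147 bp on chr19:5822054-5852200, ran over Neat1, the non-coding RNA that builds paraspeckles, with Frmd8os and part of Frmd8. E12.5 had 6 peaks there, the widest of 5752 bp, and E14.5 had 5, the widest of 3704 bp. Levels were 2.60, 2.81 and 7.30 CPM per kb, a log2 ratio of E16.5 to E12.5 of 1.49 (1.44 to 1.55). Col1a1, next in width, had 5.28, 5.37 and 8.66 CPM per kb (log2 ratio 0.71, 0.67 to 0.76). Called peaks covered 31.5%, 23.7% and 100% of the Neat1 interval and 67.5%, 45.2% and 99.8% of Col1a1. Per kb of called width the Neat1 interval had 8.25, 11.9 and 7.30 CPM, with E16.5 the lowest, and Col1a1 had 7.82, 11.9 and 8.68. Over all autosomal peaks E16.5 was the lowest by this measure too (7.53, 12.8 and 6.46). The part of what the other libraries did not call in the Neat1 interval was not tested.

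Inside Col3a1, a fibrillar collagen gene, E16.5 members of 15967 and 12802 bp followed that of 11893 bp at the start, and were singled out after their values were seen. Where E16.5 had 2.58 CPM per kb over the 15967 bp member, the Col3a1 body held a single E12.5 peak of 121 bp and no E14.5 peak, and over the 12802 bp member levels were 0.38, 0.19 and 4.09. The member of 15967 bp had 6.39 CG per kb. The Col3a1 stretch printed above is the part of this member with the most CG, at 60 CG per kb, so it does not show the composition of the whole.

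Among intervals with a peak of every library, the highest ratios of E16.5 to E12.5 outside the Hox clusters lay in gene bodies but for 1. The body of Baiap2, chr11:119946573-119953345, had levels of 0.0559, 0.376 and 3.50 CPM per kb, where called peaks measured 210, 483 and 6773 bp. After it came Igf2r with the antisense Airn (log2 ratio of E16.5 to E12.5 of 3.72), Rrbp1, an endoplasmic reticulum protein gene (3.71), Kcnv2 (3.64) and a stretch 32041 bp from the start of Tubd1 (3.51). In all 5 the widest E12.5 peak was under 1 kb, at most 799 bp, so these ratios set a narrow call against one of the whole interval. The body of Baiap2 and Kcnv2 were also among the 3 highest for E14.5 over E12.5, at 2.75 and 1.96.

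Among the same intervals the lowest ratios belonged to E12.5 members that E16.5 called in pieces. The body of Arhgef26, chr3:62394035-62399219, had 4.16, 1.14 and 0.53 CPM per kb (log2 ratio -2.97, -3.13 to -2.81). A stretch 159525 bp from the start of Skap2 had a ratio of -2.23. The body of Uvrag, chr7:98953671-98958810, had 10.9, 7.36 and 2.77 CPM per kb, and a log2 ratio of -1.98. A stretch in the body of Bmp7 (-1.96) and one 5533 bp from the start of Mnx1 (-1.87) completed the list. E16.5 called at least as much of the interval as E14.5 in the bodies of Arhgef26 (19.6% against 18.6%), Uvrag (55.0% against 54.8%) and Bmp7 (44.3% against 40.1%) and near Mnx1 (55.0% against 34.1%), and its level was the lower one in each. Per kb of called width the levels of E14.5 and E16.5 were 6.15 and 2.70 CPM for Arhgef26, 13.4 and 5.03 for Uvrag, 6.80 and 2.66 for Bmp7 and 8.11 and 3.16 near Mnx1, beside 12.8 and 6.46 over all autosomal peaks, where E16.5 was the lower library too. Near Skap2 E16.5 called more (34.2% against 4.77%) and its level was the higher one (0.80 against 0.24 CPM per kb).

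The lowest ratios of E14.5 to E12.5 lay where E14.5 called at most 3.34% of the interval, and their cause was not tested. Near Uncx, a homeobox gene of the sclerotome, E14.5 had a single peak of 24 bp where E12.5 and E16.5 had 3786 and 6376 bp, and in the body of Gata4 a single peak of 39 bp against 4672 and 6218 bp. In the bodies of Copg2 and the imprinted Mest, a peak of 301 bp faced 4814 and 9003 bp. Levels of E12.5 and E16.5 over these intervals were close for Uncx, 2.06 and 2.03 CPM per kb, and for Gata4, 2.17 and 2.63, and were 2.33 and 4.02 for Copg2.

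Scx lay in an interval of 12836 bp, chr15:76455961-76468796, within the body of Bop1. E12.5 had a peak of 10365 bp, E14.5 had 4 peaks of up to 3501 bp and E16.5 had 3 of up to 8234 bp, and the level went from 11.6 to 9.72 and 7.98 CPM per kb (log2 ratio of E16.5 to E12.5 -0.53, -0.58 to -0.49). Called peaks covered 89.8%, 66.15% and 86.9% of the interval. Per kb of called width the interval had 12.9, 14.7 and 9.18 CPM, with E14.5 then above E12.5. The peak over the start of Scx had 13.5, 12.4 and 6.39 CPM per kb of its own width, and at E16.5 it measured 2611 bp. At E14.5 it measured 2145 bp. The E12.5 value is a mean over 10365 bp that also takes in DNA downstream, so it is not set against the other stages. The E16.5 peak had a lower level than the E14.5 peak of like width, by about as much as over all autosomal peaks (12.8 CPM per called kb at E14.5 and 6.46 at E16.5). The other preset loci showed smaller differences. Per1 with the end of Vamp2 had 14.9, 15.7 and 15.9 CPM per kb, Mnt with part of Mettl16 had 27.6, 28.2 and 25.4, and Icam4 and Icam5 with Icam1 had 7.45, 8.37 and 8.34. Tns2 with part of Eif4b was the exception, at 8.23, 10.4 and 12.8. Clec3b had no member.

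One interval stood far above all others in level and was singled out after its values were seen. It lies near Esp38 on chr17:39842771-39849052, over the non-coding genes Gm26917, Gm42418 and AY036118, at copies of ribosomal RNA sequence, to which reads from the repeated ribosomal genes can map. It had 509, 290 and 226 CPM per kb and held 3.76%, 2.04% and 1.62% of all cut sites in the intervals. The next highest at E12.5, Sin3a, a co-repressor gene, had 36.1 CPM per kb. Without the interval near Esp38 the log2 ratio of summed counts of E16.5 to E12.5 went from 0.04 to 0.07 and that of E14.5 to E12.5 from 0.07 to 0.10.

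The base composition, which the choice by width did not use, differed by stage, by width class and between promoters and bodies. E12.5 members had a median of 34.1 CG dinucleotides per kb and E16.5 members 27.8. Peaks of 2500 bp or more but under 5 kb had 27.5 and 20.7, and narrower peaks of at least 100 bp had 12.1 and 11.1. The ratio of observed to expected CG was 0.481, 0.412 and 0.229 across the same width classes at E12.5. At E14.5, where few peaks were broad, those of 5 kb or more had 43.9 CG per kb and the next width class 46.9. Intervals with a start had a median of 34.0 CG per kb, those in gene bodies 14.6 and those outside protein-coding genes 16.2.

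Within the intervals, what E14.5 called was the part rich in CG. Stretches inside E14.5 peaks had a median of 36.9 CG per kb and those outside 12.9, with the inside higher in 1362 of 1477 intervals (92.2%). The Hox intervals had 34.2 CG per kb, near the median of intervals with a start. Among the intervals named by rule the poorest were the bodies of Kcnv2, 6.75, Rrbp1, 8.17, Arhgef26, 9.07, and Baiap2, 9.15, and the Col3a1 member above was poorer still.

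Of the cut sites in a library's own peaks, the share per nucleus that lay in the intervals was highest at E14.5. Regions called in every library held 86.5%, 97.7% and 81.8% of autosomal cut sites in the order of stages. The base of the share thus differed between libraries, and its part was not tested. The median nucleus had 6.58%, 8.22% and 6.85% in the order of stages, and the quartiles lay at 5.87% and 7.43%, 7.52% and 9.09%, and 6.37% and 7.44%. An interval held a count in a median of 15.1%, 21.5% and 40.2% of nuclei, and in 4.69%, 5.35% and 5.36% once each nucleus had been thinned to 1074 fragments, which left out 2071, 0 and 252 shallower nuclei. Once thinned, the libraries of E14.5 and E16.5 were close. After thinning, the interval of Hoxa9 to Hoxa11 held a count in 18.8% (17.9% to 19.8%), 23.5% (22.9% to 24.1%) and 19.2% (18.5% to 19.8%) of nuclei. The Neat1 interval (Frmd8 body) went from 7.79% and 8.04% to 20.6%, Col1a1 from 11.3% and 12.5% to 18.4%, Scx from 13.3% and 11.8% to 9.80% and the body of Uvrag from 4.85% and 3.86% to 1.38%. In each of these the order of E12.5 and E16.5 was that of the summed levels, except at Hoxa9 to Hoxa11, where the level was lower at E16.5.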

How the data were processed

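Single-nucleus ATAC-seq libraries of 3 stages were used, 1 sample each, and grouped by the stage in the labels. Per the file headers the deposited values are counts, raw whole-number tallies of transposase insertions (cut sites) in each peak of each nucleus, and the authors had called peaks in each library alone on mm10 with Cell Ranger ATAC. The headers give version 1.2.0 for E16.5 and 1.0.1 for the other stages, and the submitters' processing notes give 1.1.0. Peak lists carry no scores.

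Peaks with 1 bp of overlap were merged across libraries, and intervals with a member kept. Counts were summed over a library's peaks, divided by the interval's length and scaled to 1000000 cut sites in autosomal regions called in every library. Ratio intervals are exact (binomial) on fragments, taken as cut sites divided by 2. Transcription starts came from GENCODE vM21 basic; composition and sequences came from GRCm38. No doublet caller or filter on nuclei was used, and no test was possible. Merging, peak counts and intervals were checked on simulated data. Python 3.11.15, numpy 2.4.6, scipy 1.17.1 and pysam 0.24.0 were used.

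The members, gene lists and alternatives were chosen with earlier results of these data known. Named intervals were all Hox members, the 5 widest members per stage, the 5 highest and 5 lowest ratios of E16.5 to E12.5 and 3 each of E14.5 to E12.5, the 3 with the most starts and the most E14.5 peaks (ties in list order), the 5 widest E14.5 peaks, threshold neighbours, 6 preset genes and up to 4 genes per list. Clec3b was among the preset genes. Hic1, Prrx1, Col3a1, Sin3a and the interval near Esp38 were added afterwards. Some named items are not reported here.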

Additional observations from a re-analysis of the deposited data

Results flagged for a closer look

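Peaks of 5 kb or more were also called outside the autosomes, in data that the comparisons left aside. There were 7 (E12.5), 3 (E14.5) and 12 (E16.5). Most of those at E12.5 and E14.5 lay on the X chromosome at Bcor, a Polycomb co-repressor gene, with widths of 5397 to 8129 bp at E12.5, and at its relative Bcorl1, with 5679, 5435 and 5735 bp in the order of stages. Stag2, a cohesin subunit gene, was broad at E12.5 (5134 bp) and E16.5 (5830 bp), and Fgf16, Pcdh19 and Gpm6b at E16.5 only. The widest, 10151 bp at E16.5, lay on X outside protein-coding genes. With embryos of both sexes in a library, levels on X and Y depend on their mixture, and no comparison was made.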

How the results depend on the processing

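The limits are those of a single library per stage, of counts listed only inside called peaks and of peak lists without scores. No paired analysis was possible because each stage had 1 library and no result came from a test. A width of 7500 bp in place of 5000 bp gave 149 members at E12.5 and 312 at E16.5, an overlap of 71.1% and 34.0% of the lists, 132 and 269 genes, and 87.0% of intervals split at E14.5. Joining E14.5 peaks up to 1000 bp apart gave 45.5%. Requiring a count in 1% of nuclei left the members at 725 and 1324.

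The log2 ratios of summed counts depended on the scaling. For all intervals, E14.5 over E12.5 (0.07) was 0.25 per 1000000 counts in a library's own peaks, 0.26 with median ratio scaling, 0.19 with nuclei counted in place of cut sites, 0.11 without the deepest 5% of nuclei, 0.55 per kb of called width and 0.10 without the interval near Esp38. In the same order of alternatives, E16.5 over E14.5 (-0.03) was -0.29, -0.18, -0.25, -0.023, -0.76 and -0.025, and E16.5 over E12.5 (0.04) was -0.037, 0.053, -0.060, 0.091, -0.20 and 0.075, so that the sign of E16.5 over E12.5 turned in 3 of them and the other signs held. For the Hox intervals, E14.5 over E12.5 (-0.04) turned in each, to 0.14, 0.14, 0.37, 0.083 and 0.62. E16.5 over E14.5 (-0.01) was -0.27, -0.16, -0.23 and -0.76, with -0.01 without the deepest nuclei, and E16.5 over E12.5 (-0.05) was -0.13, -0.042, 0.14, 0.077 and -0.14. By cluster, E16.5 over E12.5 turned to 0.15 (nuclei) and 0.013 (deepest left out) in HoxA, to -0.17 (called width) in HoxB and to 0.024 (nuclei) in HoxD. By class, called width turned E14.5 over E12.5 of the E12.5-only intervals from -0.23 to 0.69 and E16.5 over E12.5 of the E16.5-only intervals from 0.29 to -0.28. The causes of the other turns were not tested; called width divides each library by the length it called. Without thinning, the median share of nuclei with a count was 15.1%, 21.5% and 40.2%, which is larger by construction, since it keeps each nucleus at its own depth. The alternatives without E14.5 peaks under 100 bp, without the Hox intervals and without the interval near Esp38 were chosen after seeing the data.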
